A study of Homo sapiens with 6 samples.

Results

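NOVA1 and 9 other RNA-binding proteins known from neurons, NOVA2, ELAVL2, ELAVL3, ELAVL4, RBFOX1, RBFOX2, RBFOX3, SRRM4 and CELF3, were followed in a prostate cancer cell line and its taxane-resistant derivative. These 10 genes were taken from the 58735 genes of the deposited tables by their symbols. NOVA1 was chosen by its measured counts in these libraries, which were lost in the resistant cells, so its difference between the lines is given as a description and without a test, and the other 9 were read beside it because of their function. The parental line was C4-2B, an established human metastatic castration-resistant prostate cancer line. RC4-2B was a subclone of C4-2B selected over 4 months in cycles of 72 h of cabazitaxel (CBZ), a taxane that blocks microtubule disassembly, with the concentration raised from 0.1 nM to 20 nM. Each line was sequenced as 3 biological replicates of total RNA, and no other treatment separates the groups in the labels. With 1 resistant subclone, the effects of resistance and of the derivation of that single subclone cannot be told apart.

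RNA-binding splicing regulators bind short motifs in pre-mRNA and raise or lower the inclusion of nearby exons, and the position of the motif relative to the exon sets the direction. NOVA1 and NOVA2 are KH-domain proteins that bind YCAY clusters and were identified as antigens in a paraneoplastic neurological disorder. The ELAVL proteins bind U-rich and AU-rich elements and act on RNA stability and splicing, with ELAVL1 (HuR) expressed in most cells and ELAVL2, ELAVL3 and ELAVL4 (HuB, HuC and HuD) mainly in neurons. The RBFOX proteins bind GCAUG. RBFOX2 is broadly expressed, including in epithelia, whereas RBFOX1 and RBFOX3 (NeuN) are largely neuronal. SRRM4 promotes the inclusion of neuronal microexons and is known from neuroendocrine prostate cancer, and CELF3 belongs to the CUG-binding CELF family. In non-neuronal cells, the repressor REST and the polypyrimidine tract protein PTBP1 hold much of this programme down.

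Reference promoter windows of 300 bases, from 250 before to 50 after the RefSeq start site (GRCh38.p14), were found for 8 of the 10 genes by symbol. Those of NOVA1, NOVA2 and ELAVL2 are shown because they belong to the lost gene, to its undetected paralog and to the only mainly neuronal gene of the set with more than 3 counts in all 6 libraries. CG dinucleotides are in capitals, and all are written 5′ to 3′ on the gene's strand. The RefSeq start sites used lie 279 bases from the deposited gene start for NOVA1, 319 for NOVA2 and 97 for ELAVL2. The deposited starts of NOVA1 and NOVA2 thus fall outside their windows. The NOVA1 window lies at chr14:26597984-26598283 on the minus strand.
NOVA1: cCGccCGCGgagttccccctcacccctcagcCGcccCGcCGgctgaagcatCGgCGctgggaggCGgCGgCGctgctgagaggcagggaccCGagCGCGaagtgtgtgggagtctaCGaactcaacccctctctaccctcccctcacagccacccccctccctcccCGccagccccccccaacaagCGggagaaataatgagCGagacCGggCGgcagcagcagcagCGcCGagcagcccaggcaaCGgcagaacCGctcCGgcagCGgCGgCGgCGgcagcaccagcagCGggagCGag
The NOVA2 window lies at chr19:45973816-45974115 on the minus strand.
NOVA2: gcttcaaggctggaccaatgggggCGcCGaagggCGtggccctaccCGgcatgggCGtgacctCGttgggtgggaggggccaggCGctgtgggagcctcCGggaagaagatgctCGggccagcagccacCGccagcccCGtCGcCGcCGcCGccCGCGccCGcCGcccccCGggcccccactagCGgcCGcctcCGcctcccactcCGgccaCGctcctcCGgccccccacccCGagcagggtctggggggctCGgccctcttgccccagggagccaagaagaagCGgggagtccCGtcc
The ELAVL2 window lies at chr9:23826191-23826490 on the minus strand.
ELAVL2: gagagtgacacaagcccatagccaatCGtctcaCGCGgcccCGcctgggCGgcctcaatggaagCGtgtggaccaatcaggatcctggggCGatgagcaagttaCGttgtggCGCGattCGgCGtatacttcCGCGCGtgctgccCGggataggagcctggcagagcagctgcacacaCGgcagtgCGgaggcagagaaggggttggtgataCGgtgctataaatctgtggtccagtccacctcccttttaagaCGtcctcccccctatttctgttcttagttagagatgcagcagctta
The NOVA1 window held 31 CG dinucleotides, the NOVA2 window 30 and the ELAVL2 window 20, against a median of 14 over all 35116 windows of the same length. Fewer CG dinucleotides than in NOVA1 were held by 79.35% of those windows. The GC box GGGCGG, searched on both strands, occurred 3 times for NOVA1, 2 times for NOVA2 and 1 time for ELAVL2, and was present in 44.95% of all windows. TATAAA occurred 1 time in the ELAVL2 window and not in those of NOVA1 and NOVA2 (11.53% of all windows). These are counts of letters in reference sequence, and methylation or factor binding was not measured.

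Total counts on genes were 15707134 to 18052517 per library, so that 3 counts, used here as the floor of detection, corresponded to 0.170 to 0.188 CPM (counts scaled by TMM to library size). RC4-2B replicate 2 stood apart from the other libraries. The SD of its log2 differences from the other RC4-2B replicates was 0.63 and 0.56, against 0.25 between those replicates and 0.17 to 0.22 between C4-2B replicates, and its differences from RC4-2B replicate 1 followed the GC content of the genes (Spearman rho of 0.75, taken over genes and not over independent samples). Leaving this library out changed some calls, turned some signs or moved some log2 fold changes by over 1.5 times. In each such case, for a named gene whose log2 fold change is given below, the value without this library is in the same paragraph. The label of the resistant line was checked by ABCB1, the drug efflux pump, which had 0, 1 and 0 counts in C4-2B and 10742, 15948 and 13179 counts in RC4-2B. Prostate luminal markers were present in every library, and all 10 of those examined, HOXB13, FOXA1, KRT8 and KRT18 among them, passed the filter on low counts.

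NOVA1 (ENSG00000139910, GRCh38, chromosome 14, 26443093 to 26597754, minus strand) was expressed at a low level in C4-2B and was at or under the floor in RC4-2B. It had 65, 89 and 146 counts in C4-2B replicates 1, 2 and 3, and 1, 3 and 0 counts in the RC4-2B replicates. The lowest C4-2B library was therefore far above the highest RC4-2B library. In CPM these were 3.88, 5.04 and 8.31 (mean 5.74 ± 2.30, SD, n = 3) against 0.0625, 0.171 and 0 (mean 0.0779 ± 0.0865, SD, n = 3). Because no RC4-2B library was above 3 counts, the difference has only a bound. By the mean of the C4-2B libraries, set against the mean CPM of 3 counts in the RC4-2B libraries, NOVA1 was at least 32.2-fold lower. This bound leaves out the spread between the C4-2B libraries. With length taken into account, the deposited FPKM of NOVA1 was 0.345, 0.447 and 0.746 in C4-2B against 0.00557, 0.0159 and 0 in RC4-2B. In these bulk libraries, fewer cells with NOVA1 RNA and less NOVA1 RNA per cell cannot be told apart. A read count per gene also does not show which NOVA1 transcripts or exons were present.

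**Figure D1:**
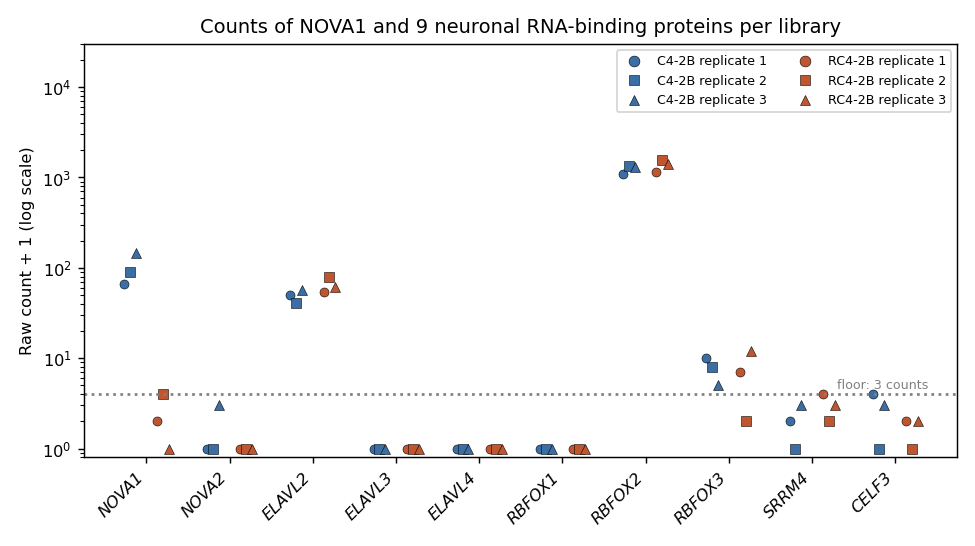
Raw counts plus 1 on a log axis for the 10 genes in each of the 6 libraries, with C4-2B in blue, RC4-2B in orange, the replicate number as the symbol and the floor of 3 counts as a dotted line. NOVA1 had 65 to 146 counts in C4-2B and 0 to 3 in RC4-2B, RBFOX2 stayed above 1000 counts in all libraries and 6 genes lay at or under the floor in every library.

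Among the 15054 genes with enough counts to be tested, 19 (0.126%) were at or under 3 counts in every RC4-2B library, and 5 were so in every C4-2B library. NOVA1 was 1 of 3 genes that were at or under 3 counts in every RC4-2B library with more than 50 counts in every C4-2B library. These shares describe how rare the pattern was, and since NOVA1 was chosen for it they are no test.

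NOVA1 also varied within the parental line. Its coefficient of variation over the C4-2B replicates was 40.0%, where counting error alone at its mean count gives 10.0%, and its highest C4-2B library was 2.14 times its lowest in CPM. Of 791 tested genes, NOVA1 included, whose C4-2B level lay within 1.25-fold of that of NOVA1, 98.6% had a lower coefficient of variation, and their median was 12.5%. ELAVL2, of lower count, had 17.0% (median of like genes 16.1%) and RBFOX2 had 8.40% (median of like genes 5.51%).

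NOVA2, the paralog of NOVA1 (ENSG00000104967, chromosome 19, 45933734 to 45973546), did not take the place of NOVA1 at a detectable level. It had 0, 0 and 2 counts in C4-2B and 0 counts in each RC4-2B library, so that its level in RC4-2B was below the 0.170 to 0.188 CPM that 3 counts represent. In C4-2B, NOVA1 made up 98.4% to 100% of the summed FPKM of NOVA1 and NOVA2. In RC4-2B that sum was 0 to 0.0159 FPKM, too low for a share.

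Of the 3 mainly neuronal ELAVL genes, ELAVL2 alone was detected. ELAVL2 (ENSG00000107105, chromosome 9, 23690104 to 23826337) had 49, 40 and 56 counts in C4-2B against 53, 79 and 61 in RC4-2B, which is 2.79 ± 0.475 CPM against 3.80 ± 0.624 CPM (SD, n = 3). In CPM every RC4-2B library lay above every C4-2B library, as was the case for 17.0% of all tested genes, and RC4-2B replicate 2 was the highest of the 6. The log2 fold change was 0.45 (SE 0.24, 95% interval -0.095 to 0.99), with an adjusted p of 0.297 by edgeR's quasi-likelihood test, and it was 0.31 (adjusted p 0.461) without RC4-2B replicate 2. A rise of ELAVL2 beyond the spread between replicates was thus not shown, while the interval extends to almost 1 on the log2 scale. ELAVL3 (ENSG00000196361, chromosome 19) and ELAVL4 (ENSG00000162374, chromosome 1) had 0 counts in all 6 libraries. ELAVL1, the widely expressed member, carried the family in both lines, with 29.1 to 29.9 FPKM in C4-2B and 27.8 to 31.3 FPKM in RC4-2B. Its log2 fold change was -0.019 (adjusted p 0.912 by edgeR), and -0.041 without RC4-2B replicate 2. ELAVL1 supplied 98.1% to 98.7% of the summed ELAVL FPKM in C4-2B and 97.4% to 98.0% in RC4-2B, and ELAVL2 supplied the rest.

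RBFOX2 (ENSG00000100320, chromosome 22, 35738736 to 36028425) was the most abundant gene of the set in each line. It had 1085, 1330 and 1318 counts in C4-2B against 1154, 1573 and 1421 in RC4-2B. The C4-2B libraries lay between 64.7 and 75.3 CPM and the RC4-2B libraries between 72.2 and 89.7 CPM, so the groups overlapped. The log2 fold change was 0.19 (SE 0.13, 95% interval -0.10 to 0.48), with an adjusted p of 0.386 by edgeR, and 0.12 (adjusted p 0.475) without RC4-2B replicate 2. At this depth and with 3 replicates, the upper bound of 0.48 on the log2 scale limits how large a rise could have gone unseen, and the lower bound limits a fall in the same way. RBFOX3 (ENSG00000167281, chromosome 17, 79089345 to 79516148) was detected at traces, with 9, 7 and 4 counts in C4-2B against 6, 1 and 11 in RC4-2B, and its libraries overlapped. RBFOX1 (ENSG00000078328, chromosome 16), which spans 5239802 to 7713338, had 0 counts in all 6 libraries. RBFOX2 supplied 99.2% to 99.7% of the summed RBFOX FPKM in C4-2B and 99.2% to 99.9% in RC4-2B.

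SRRM4 (ENSG00000139767, chromosome 12, 118981495 to 119163051), the microexon regulator, had 1, 0 and 2 counts in C4-2B against 3, 1 and 2 in RC4-2B. CELF3 (ENSG00000159409, chromosome 1, 151702404 to 151716814) had 3, 0 and 2 counts in C4-2B against 1, 0 and 1 in RC4-2B. Neither gene exceeded 3 counts in any library, so neither a rise nor a fall was detectable at this depth. Relatives of both were present. SRRM3, which acts on microexons as SRRM4 does, had 74 to 128 counts in C4-2B and 45 to 112 in RC4-2B. Its log2 fold change was -0.28 (adjusted p 0.654 by edgeR) and turned to 0.021 without RC4-2B replicate 2. CELF1, which is widely expressed, supplied 99.3% to 99.7% of the summed CELF FPKM in C4-2B and 99.5% to 99.7% in RC4-2B.

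**Figure D2:**
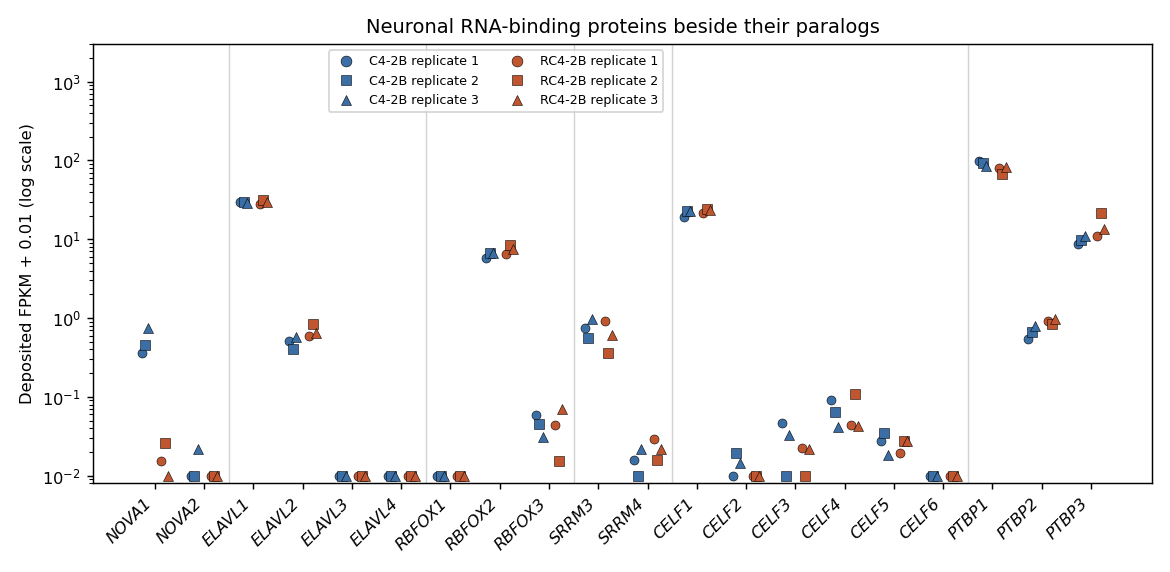
Deposited FPKM plus 0.01 on a log axis for the 10 genes and their relatives, family by family, in C4-2B (blue) and RC4-2B (orange), with the replicate number as the symbol. ELAVL1, RBFOX2, CELF1 and PTBP1 lay at 5.78 FPKM or more in all libraries, ELAVL2 lay between 0.393 and 0.820 FPKM, and NOVA1 lay between 0.345 and 0.746 FPKM in C4-2B and at 0.0159 FPKM or less in RC4-2B.

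On the per-length FPKM scale, the level order in C4-2B was RBFOX2 (6.41 ± 0.547, SD, n = 3), NOVA1 (0.513 ± 0.208), ELAVL2 (0.487 ± 0.0855) and RBFOX3 (0.0351 ± 0.0139). The libraries of NOVA1 and ELAVL2 overlapped, so that they were not separated beyond their spread. In RC4-2B the order was RBFOX2 (7.45 ± 0.969), ELAVL2 (0.676 ± 0.128) and RBFOX3 (0.0329 ± 0.0269), and NOVA1 was no longer above the floor. NOVA2, SRRM4 and CELF3 did not exceed 3 counts in any library and were not ranked in either line.

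Besides NOVA1, 2 of the 9 genes passed the filter on low counts, ELAVL2 and RBFOX2, and 0 of these 2 passed an adjusted p of 0.05 by edgeR, where 1.98% of all tested genes did (298 of 15054, with 1.08% higher and 0.903% lower). At an unadjusted p under 0.05 the count was also 0, with 21.4% of all tested genes, and DESeq2 called 0, with 5.93% of all genes it tested. The remaining 7 genes were not tested, of which 3 had 0 counts in all 6 libraries and 6 did not exceed 3 counts in any.

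The genes that surround these regulators in splicing control were read next, as a list of 30 partner RNA-binding proteins. Of these, 25 were tested, 0 rose and 1 fell, RBM24, against 1.08% and 0.903% of all tested genes. At an unadjusted p under 0.05, 2 were higher and 4 lower, with 21.4% of all tested genes past it in either direction. Without RC4-2B replicate 2, 0 rose and 2 fell, where 12.5% of all genes were called. The median log2 fold change of the tested partners was -0.045, beside 0.0063 over all tested genes, and the range ran from -0.83 to 0.59. Their summed FPKM was 544 to 559 in C4-2B and 505 to 521 in RC4-2B.

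RBM24, a splicing regulator known from heart and skeletal muscle, had 932, 921 and 953 counts in C4-2B and then 499, 613 and 420 in RC4-2B. Every RC4-2B library was below every C4-2B library, as was the case for 17.1% of all tested genes in CPM. RBM24 fell from 54.0 ± 1.74 to 30.3 ± 5.20 CPM (SD, n = 3), and its log2 fold change was -0.83 (SE 0.15, adjusted p 0.0290 by edgeR). The call was lost without C4-2B replicate 1, 2 or 3 (edgeR adjusted p of 0.181, 0.141 and 0.148) and without RC4-2B replicate 3 (0.0978), while without RC4-2B replicate 2 the adjusted p was 6.5e-05.

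PTBP1 and PTBP2 form the pair that is exchanged when neurons mature, with PTBP1 in non-neuronal cells and PTBP2 (nPTB) in young neurons. PTBP1 had 98.1, 91.5 and 85.9 FPKM in C4-2B and 80.0, 67.9 and 83.0 FPKM in RC4-2B. PTBP2 had 0.532, 0.655 and 0.786 FPKM in C4-2B and 0.912, 0.825 and 0.961 FPKM in RC4-2B. Every RC4-2B library was lower for PTBP1 and higher for PTBP2 than every C4-2B library. In CPM, 17.1% of all tested genes were lower in this way and 17.0% were higher. Neither gene passed the threshold, with log2 fold changes of -0.28 (SE 0.12, adjusted p 0.231 by edgeR) and 0.43 (SE 0.18, adjusted p 0.228). With a correction for GC content, added after the data were seen, PTBP1 turned to 0.089 and PTBP2 was 0.25. The FPKM of PTBP1 was 109 to 184 times that of PTBP2 in C4-2B and 82.4 to 87.7 times in RC4-2B. The smallest two-sided p that an exact permutation test of 3 against 3 libraries can give is 0.1, so this ratio cannot pass the threshold in that test, and no other test of it was run. Of the partners with the highest FPKM besides PTBP1, KHDRBS1, PCBP1 and HNRNPL had log2 fold changes of 0.066, -0.52 and -0.27, with edgeR adjusted p of 0.719, 0.247 and 0.177. Without RC4-2B replicate 2, KHDRBS1 turned to -0.017, PCBP1 had -0.26 and PTBP1 -0.18.

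**Figure D3:**
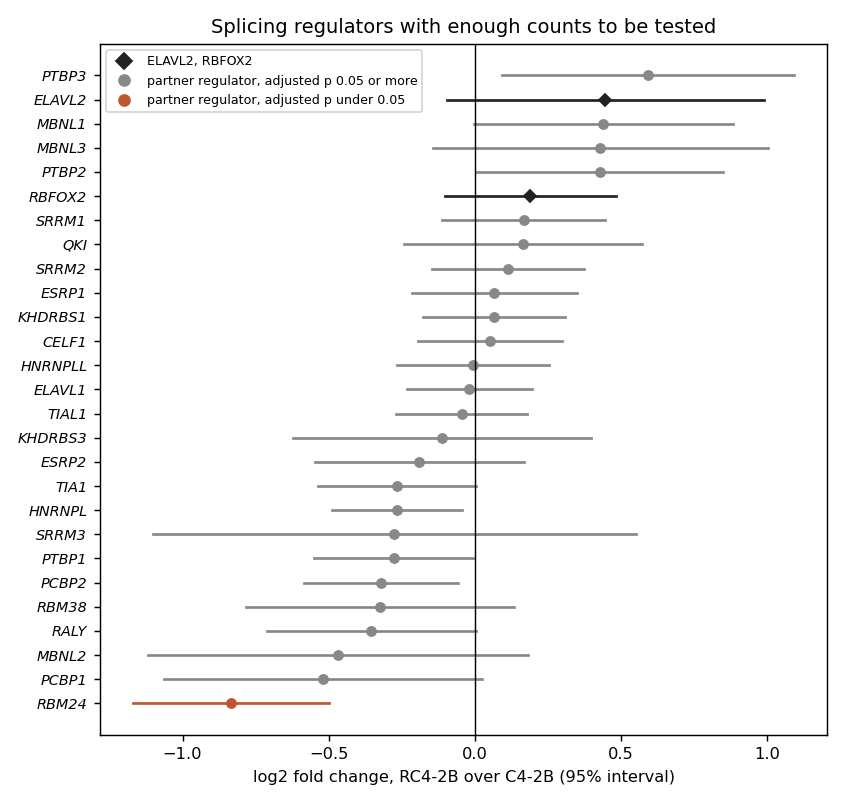
The log2 fold change of RC4-2B over C4-2B (horizontal axis, with 95% intervals from edgeR) for ELAVL2 and RBFOX2 (black diamonds) and the 25 tested partner regulators (circles). RBM24, at -0.83, was the partner with an adjusted p under 0.05 (orange), and the intervals of ELAVL2 and RBFOX2 included 0.

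REST, the repressor of neuronal genes in other tissues, was present in both lines with 59.3 ± 3.39 CPM against 63.9 ± 15.5 CPM (C4-2B against RC4-2B, SD, n = 3). Its log2 fold change was 0.11 (SE 0.17, adjusted p 0.721 by edgeR) and turned to -0.089 without RC4-2B replicate 2 and to -0.095 with the GC correction. All 10 genes listed for REST and its corepressors were tested. The threshold was passed by 0 in either direction by edgeR or DESeq2 (1.98% and 5.93% of all genes tested by each). At an unadjusted p under 0.05, 0 of the 10 genes were higher and 2 lower (21.4% of all tested genes in either direction). Their median log2 fold change was 0.034, beside 0.0063 over all tested genes, and turned to -0.099 with the GC correction. The corepressors with the highest FPKM were HDAC1, KDM1A, HDAC2 and RCOR1, with log2 fold changes of -0.25, 0.082, 0.091 and 0.089 and edgeR adjusted p between 0.199 and 0.725, and KDM1A, HDAC2 and RCOR1 turned to -0.066, -0.052 and -0.023 without RC4-2B replicate 2. TTCAGCACC, the left portion of the REST element, searched on both strands, was in none of the NOVA1, NOVA2 and ELAVL2 windows shown above, and occurred in 0.376% of all windows.

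Genes with exons known as targets of NOVA proteins were examined at the level of whole genes, the level at which the tables were counted. Of 10 such genes, 6 were tested and 0 passed the threshold in either direction by edgeR or DESeq2, with 0 also at an unadjusted p under 0.05. Over all genes, edgeR called 1.98% and DESeq2 5.93% of those it tested, and 21.4% had an unadjusted edgeR p under 0.05. The median log2 fold change of the 6 was 0.050, beside 0.0063 over all tested genes, and turned to -0.022 with the GC correction. APLP2, AGRN, MAPK9 and NEO1, which had the highest FPKM of the list, had log2 fold changes of 0.18, -0.55, 0.11 and 0.26, with edgeR adjusted p of 0.408, 0.325, 0.672 and 0.314. For AGRN, which organises synapses at the neuromuscular junction, the value was -0.21 without RC4-2B replicate 2, where MAPK9 turned to -0.076, APLP2 had 0.038 and NEO1 0.14. TERT, the telomerase catalytic subunit, whose splicing NOVA1 is known to affect in cancer cells, had 11.5 ± 0.621 CPM in C4-2B against 8.04 ± 3.79 CPM in RC4-2B (SD, n = 3), with a log2 fold change of -0.52 (SE 0.33, adjusted p 0.355 by edgeR) and of -0.20 without RC4-2B replicate 2. DAB1 and GLRA2 had 0 counts in all 6 libraries. Exon inclusion, which NOVA proteins act on, was not measured by these tables.

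Markers of neurons and of neuroendocrine prostate cells were read beside NOVA1, as the cell types in which these regulators are best known. Of 13 neuronal markers, 3 were tested, 0 rose and 1 fell, MAP2, against 1.08% and 0.903% of all tested genes, while 7 did not exceed 3 counts in any library and SNAP25, STMN2 and INA had 0 counts throughout. The summed FPKM of the list was 4.79 to 6.76 in C4-2B and 3.66 to 4.25 in RC4-2B. MAP2, a microtubule-associated protein of dendrites, supplied most of that sum and had 719, 900 and 1136 counts in C4-2B against 388, 566 and 487 in RC4-2B. Its log2 fold change was -0.90 (SE 0.18, adjusted p 0.0478 by edgeR). Like NOVA1, it was lowest in replicate 1 and highest in replicate 3 of C4-2B. The call was lost without C4-2B replicate 1, 2 or 3 (edgeR adjusted p of 0.114, 0.180 and 0.190), and without RC4-2B replicate 1 (0.0630) or 3 (0.144). It was kept without RC4-2B replicate 2 (edgeR adjusted p 0.00052), where 12.5% of all genes were called. NEFL and MAPT, the other tested markers of this list, did not fall. Their log2 fold changes were 0.33 and 0.046 (edgeR adjusted p of 0.430 and 0.879), and 0.41 and 0.17 without RC4-2B replicate 2.

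Of 13 neuroendocrine prostate markers, 4 were tested, 1 rose, POU3F2, and 0 fell, against 1.08% and 0.903% of all tested genes. INSM1 and NEUROD1, transcription factors of neuroendocrine tumours, had 0 counts in all 6 libraries, 6 markers did not exceed 3 counts in any library, and the summed FPKM was 10.5 to 10.7 in C4-2B and 6.59 to 10.7 in RC4-2B. POU3F2 (BRN2), a neural transcription factor, had 20, 16 and 9 counts in C4-2B against 41, 62 and 43 in RC4-2B. This was a rise from 0.871 ± 0.342 to 2.87 ± 0.572 CPM (SD, n = 3), and the log2 fold change was 1.72 (SE 0.35, adjusted p 0.0485 by edgeR). This call was lost without C4-2B replicate 1, 2 or 3 (edgeR adjusted p of 0.142, 0.204 and 0.181), and without RC4-2B replicate 1 (0.0532) or 3 (0.112). It was kept without RC4-2B replicate 2 (edgeR adjusted p 0.0117), where 12.5% of all genes were called. DLL3, ENO2 and SYP had log2 fold changes of -0.35, 0.015 and -0.46, with edgeR adjusted p of 0.392, 0.964 and 0.558. Without RC4-2B replicate 2 these were -0.097, 0.099 and -0.074. DLL3, which had the highest FPKM of the list, had 8.08, 4.36 and 7.89 FPKM in RC4-2B replicates 1, 2 and 3. The low end of the summed FPKM in RC4-2B was that of replicate 2.

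The 10 prostate luminal markers kept a summed FPKM of 857 to 880 in C4-2B and 807 to 947 in RC4-2B. By edgeR 0 rose and 1 fell, against 1.08% and 0.903% of all tested genes. The gene that fell was TMPRSS2, an androgen-regulated protease, with a log2 fold change of -1.08 (SE 0.16, adjusted p 0.0190). This call was lost without C4-2B replicate 1, 2 or 3 (edgeR adjusted p of 0.119, 0.0816 and 0.104) and without RC4-2B replicate 3 (0.0538). It was kept without RC4-2B replicate 2 (edgeR adjusted p 9.4e-06). FOLH1, HOXB13 and STEAP1, among the luminal markers with the highest FPKM, had log2 fold changes of 0.062, -0.073 and -0.33, with edgeR adjusted p of 0.817, 0.771 and 0.111, and without RC4-2B replicate 2 FOLH1 turned to -0.12 and HOXB13 to 0.024. STEAP1 passed the threshold without that library (log2 fold change -0.31, edgeR adjusted p 0.0142), where 12.5% of all genes were called. The part of any of these cell type markers in the loss of NOVA1 was not tested.

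The loss of NOVA1 was set beside its neighbours on chromosome 14, since position played no part in the choice of the genes. NOVA1 lies in a gene-poor stretch. Of 12 other genes that start within 1 Mb of its start, 5 had any counts, none had more than 5 in a library and 0 were tested. The antisense RNA LINC02588, which starts 0.658 kb away and runs in the opposite direction, had 2, 0 and 5 counts in C4-2B against 2, 0 and 0 in RC4-2B. AL079343.1, an RNA inside a NOVA1 intron on the same strand (26592747 to 26594517), had 0, 2 and 1 counts in C4-2B and 0 in each RC4-2B library. In the deposited coordinates LINC02588 begins at 26598412, outside NOVA1, whereas AL079343.1 lies within it. How reads in such an overlap were assigned, and whether strand was used, are not given in the sources used here.

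Within 5 Mb of the NOVA1 start lie 356 other genes, 77 of them tested, of which 0 rose and 1 fell, PCK2, against 1.08% and 0.903% of all tested genes. Without RC4-2B replicate 2 the count was 5 higher and 4 lower, where 12.5% of all genes were called. The median log2 fold change of the 77 was -0.12, beside 0.0063 over all tested genes, and with the GC correction it was -0.060. The nearest tested gene was STXBP6, an inhibitor of SNARE complex assembly, which starts 1547 kb away and had 54, 69 and 63 counts in C4-2B against 85, 150 and 96 in RC4-2B. Its log2 fold change was 0.86 (SE 0.24, adjusted p 0.105 by edgeR), a value above 0 where that of NOVA1 was far below. SDR39U1 and CBLN3, also among the nearest, had log2 fold changes of -0.77 and -0.56 and edgeR adjusted p of 0.247 and 0.253, and SDR39U1 had -0.44 without RC4-2B replicate 2. PCK2, the mitochondrial phosphoenolpyruvate carboxykinase, starts 2504 kb from NOVA1 and fell from 239 ± 29.6 to 101 ± 25.7 CPM (SD, n = 3), and its log2 fold change was -1.24 (SE 0.19, adjusted p 0.0203 by edgeR). That call was lost without C4-2B replicate 1, 2 or 3 (edgeR adjusted p of 0.136, 0.0942 and 0.0755) and without RC4-2B replicate 3 (0.0866). It was kept without RC4-2B replicate 2 (edgeR adjusted p 2.2e-05).

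**Figure D4:**
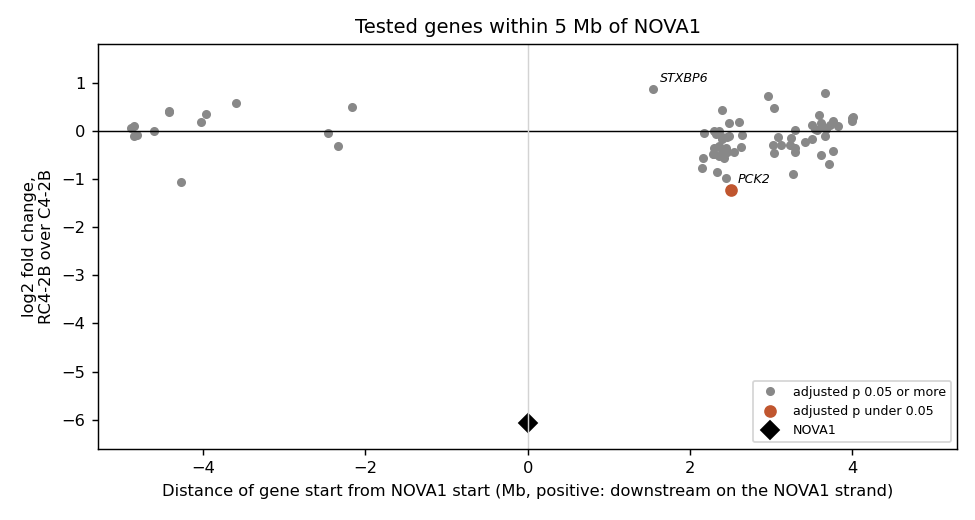
The log2 fold change of RC4-2B over C4-2B (vertical axis) against the distance in Mb of each gene's start from the NOVA1 start, for NOVA1 (black diamond) and the 77 tested genes within 5 Mb, of which PCK2 had an adjusted p under 0.05 (orange). The tested neighbours lay between -1.24 and 0.86, NOVA1 at -6.06 as fitted, and no tested gene lay within 1 Mb.

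The genes whose profile over the 6 libraries was most like that of NOVA1, by the Euclidean distance between log2 CPM values (prior count 2) centred on each gene's mean, included SYT4, ADRA2A, UNC5A and CBLN2. Since they were picked for this likeness, their values are a description. SYT4, a synaptotagmin of secretory vesicles, was nearest (distance 0.987) and had 5203, 5503 and 5283 counts in C4-2B against 111, 255 and 132 in RC4-2B. Its C4-2B replicates were level where those of NOVA1 were not, and it remained well above the floor in RC4-2B. ADRA2A, the alpha-2A adrenergic receptor, had 86, 67 and 107 counts in C4-2B against 5, 5 and 1 in RC4-2B. UNC5A, a netrin receptor, had 101, 87 and 132 counts in C4-2B against 5, 4 and 4 in RC4-2B. CBLN2, a secreted synapse organiser, had 65, 101 and 194 counts in C4-2B against 0, 0 and 1 in RC4-2B, so that it shared with NOVA1 both the near absence in RC4-2B and the lowest count in C4-2B replicate 1 and highest in C4-2B replicate 3. None of these 4 lies on chromosome 14.

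**Figure D5:**
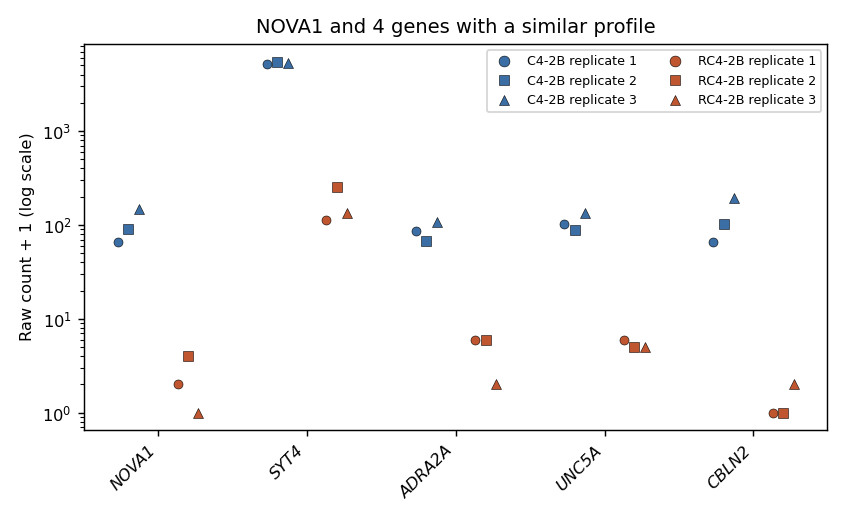
Raw counts plus 1 on a log axis for NOVA1 and 4 genes of similar profile, with C4-2B in blue, RC4-2B in orange and the replicate number as the symbol. In all of these genes every C4-2B library lay above every RC4-2B library, and NOVA1 and CBLN2 did not exceed 3 counts in RC4-2B.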

How the data were processed

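RNAseq libraries of C4-2B and RC4-2B (3 biological replicates each) were read from 2 tables. The authors mapped reads with STAR to GRCh38 and deposited raw read counts per gene and FPKM values, in which those counts are scaled to gene length and library size. The read counter, the annotation release and whether strand was used are not given in the sources used here. The methods of the study and the labels name different sera for the medium. The 10 genes and all gene lists were chosen with earlier results of these data known.

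Counts were fitted for all genes in R 4.3.3 with edgeR 4.0.16 (TMM, filterByExpr with its minimum of 10 counts, group as the only term, glmQLFit and glmQLFTest), in place of DESeq2, the tool of the study. P-values were adjusted by Benjamini-Hochberg over 15054 tested genes, with a threshold of 0.05. The SE was taken as |log2 fold change| over the root of F. CPM is TMM-scaled, and FPKM was used to compare genes with each other. Replicates within a line differed by more than counting noise (3.37 to 64.9 in chi-square per gene), and none was taken as a duplicate. The floor of 3 counts covers counting error only. The fit was tested on simulated data. Named genes were all 10 genes, list genes past the threshold, the 4 of each list with the highest FPKM, PTBP1, PTBP2, SRRM3, ELAVL1 and REST, the 4 tested genes nearest to NOVA1, and the 5 most like it by profile. Some genes that this rule covers are not reported here. CELF1, TERT, LINC02588, AL079343.1 and list genes at 0 were named after their values were seen.

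Alternatives were DESeq2 1.42.0, RLE and upper-quartile scaling, no filter, a mean of at least 10 counts, a replicate block, leaving out each library, limma 3.58.1 with a trend on log2(FPKM + 1) and log2(FPKM + 0.1), a prior count of 2, a 2 Mb window and a correction for GC content by lowess, span 0.2, against GC known for 99.6% of tested genes. Promoter sequences are from RefSeq (GRCh38.p14).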

Additional observations from a re-analysis of the deposited data

How the results depend on the processing

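Of the 9 genes other than NOVA1, 0 passed the threshold under any alternative that held them, and 0 did among the REST and NOVA target lists. The limma fits with a filter kept genes with at least 1 FPKM in at least 3 libraries, which left out NOVA1, ELAVL2 and POU3F2. ELAVL2 kept a log2 fold change of 0.23 to 0.55 (adjusted p 0.190 to 0.593) and RBFOX2 one of 0.12 to 0.28 (0.176 to 0.722). NOVA1 was lower in the 15 alternatives that held it, which is a description and no support, since it was chosen for its loss in the same libraries. Its log2 fold change ran from -7.26 without RC4-2B replicate 2 to -2.47 by limma on log2(FPKM + 0.1) without a filter, where the pseudocount limits the value. Against 1 in the fit reported, the partner list had 2 calls without the filter on low counts, 2 with the GC correction and 0 by limma on log2(FPKM + 1) or log2(FPKM + 0.1), with or without a filter. The neuronal and neuroendocrine lists had 0 in those limma fits, but of these only the fit without a filter held POU3F2. The luminal list had 2 with the GC correction and 0 by limma on log2(FPKM + 0.1) without a filter. Genes near NOVA1 numbered 3 by DESeq2, 5 without the filter and 4 with the GC correction. They numbered 0 by limma on log2(FPKM + 0.1) without a filter, and 0 in a window of 2 Mb, where STXBP6 was the only gene tested. Of all 15054 tested genes, the GC correction called 657 higher and 490 lower, against 162 and 136 in the fit reported. DESeq2 called 5.93% of all genes it tested, and 12.5% were called without RC4-2B replicate 2. Shares for the remaining fits are not given here, so these counts are no result about the lists alone. Leaving out 1 library gave 0 to 2 calls for partners and luminal markers, 0 to 1 for neuronal and neuroendocrine markers and 0 to 9 near NOVA1. Apart from the smaller window, the cause was not tested.

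The correlations of same-numbered deviations were 0.31, 0.18 and -0.073, and those of differently numbered ones ran from -0.29 to 0.17. With 3 libraries per line these values cannot settle whether the replicate numbers pair the libraries, and no pairing was used in the fit reported. With the replicate block, the partner, neuronal and neuroendocrine lists had 0 calls each, luminal markers 1 and genes near NOVA1 1. RBM24, MAP2 and POU3F2 then had edgeR adjusted p of 0.0569, 0.0512 and 0.0737. DESeq2 called 902 genes in all and edgeR 298, and 1925 were called without RC4-2B replicate 2. Of the values of single named genes under all alternatives, 646 kept their direction and side of the threshold or moved little, 22 moved, 36 lost the threshold and 3 passed it anew. No gene past the threshold changed sign. Genes under 3 counts are beyond the reach of this depth.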

Other observations

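The spread of NOVA1 among the C4-2B replicates was shared by a few other genes of like level, named here after their values were seen. A coefficient of variation at or above the 40.0% of NOVA1 was found for 10 of the genes within 1.25-fold of its C4-2B level, namely GCG, ALDH1A1, BCHE, CBLN2, ESPN, LRRC37A9P, MAGEA2, UGT2B17, BRDT and COL12A1. Of these, 7 were highest in C4-2B replicate 3, as NOVA1 was, 2 in replicate 2 and 1 in replicate 1, where 36.8% of all genes of like level were highest in replicate 3. The 10 genes were picked for their spread over the same libraries, so these counts are a description and no test. ALDH1A1, a retinaldehyde dehydrogenase, had 53, 66 and 181 counts in the C4-2B replicates, and GCG, which encodes proglucagon, had 34, 62 and 189.

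Genes of this group did not share a direction between the lines. BCHE, butyrylcholinesterase, had 43, 93 and 169 counts in C4-2B against 908, 1369 and 1276 in RC4-2B. COL12A1, a fibril-associated collagen, had 119, 175 and 68 counts in C4-2B against 0, 0 and 4 in RC4-2B.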
